A study of Mus musculus with 19 samples.

Results

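The 43 genes described here encode proteins of the synaptic vesicle and of the machinery that releases its transmitter. They are 3 synapsins, 4 vesicle membrane proteins, 12 synaptotagmins, 5 SNARE proteins, 2 complexins, 3 vesicular glutamate transporters, 8 proteins of priming and of the active zone, and 6 Rab3 proteins and C2-domain effectors. The list was set by gene name, with no threshold on measured values but with earlier results of these data known, and all 43 were found among the 24130 Ensembl genes that any library lists. RNA came from the primary somatosensory cortex (S1) of 8 male C57BL/6 mice (C57BL/6J in the methods of the study) aged 56 days, which carried no genetic change or treatment. S1 was cut into 6 adjacent segments, which the labels describe as mostly layers 1 to 3 (A), mostly layer 4 (B), mostly layer 5 (C and D), mostly layer 6 (E) and mostly layer 6b (F). Polyadenylated RNA was sequenced in 7 libraries, of which A, C, D, E and F each pooled 8 mice, and B1 and B2 each pooled 4 mice of a litter. Segment B is thus the only one with replicates (n = 2), segments share their mice, and the study states that a segment does not match a single layer exactly.

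At a chemical synapse, synaptic vesicles filled by transporters such as the vesicular glutamate transporters dock at the active zone. RIM and Munc13 proteins prepare them there, and the SNARE proteins synaptobrevin, syntaxin and SNAP-25 fuse them with the membrane when calcium binds a synaptotagmin. Many of these proteins have paralogs that differ between types of neuron in the cortex, although their messenger RNA is found mainly in the cell body and not at the synapse, so a level in a segment describes the neurons whose bodies lie there more than the synapses made there.

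Levels are FPKM (fragments per kilobase of model, scaled to the depth of the library), which puts genes of unlike length on a like scale. A relation to transcript length and GC content that differed between libraries remained, as given below. Comparisons between genes may carry it. Shares divide the FPKM of a segment by the total of all 6 segments, after B1 and B2 were averaged, so that an even gene has a share of 16.7%. Where 7 values are given, they run from A through B1, B2, C, D and E to F. A gene was called classifiable when the widest of its 7 deposited 95% intervals spanned at most 50% of its mean FPKM, which held for 40 of the 43 members and 11409 genes. The members outside that limit were Syt9, Slc17a8 and Unc13c. In bulk tissue, fewer cells of a type and less RNA per cell cannot be told apart.

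Library A stands apart, and this bears on every comparison with it. The median log2 deviation of the 11409 classifiable genes from their mean over the libraries was -0.35 in A and between -0.09 and 0.18 in the other libraries. For the classifiable members it was -0.66 in A and between -0.14 and 0.22 elsewhere. Genes of the mitochondrial genome took 21.8% of the summed FPKM in A and 5.03% to 18.2% in the others. The Spearman correlation of the deviation with the length of a gene's transcripts, across 10801 genes, was -0.29 in A and -0.03 to 0.22 in the others. That with GC content was 0.37 in A, 0.45 in B1, -0.28 in B2 and between -0.44 and -0.15 in C to F. It thus differed in sign between the replicates. The part of these in the low values of A and in the differences between B1 and B2 was not tested. The depth was estimated at 31.5 M (A) to 75.3 M (B2) fragments, and the deposited intervals cover this counting error but not the variation between mice.

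Together the 43 members made up 1.15%, 2.21%, 1.82%, 2.35%, 2.33%, 2.26% and 1.95% of the summed FPKM of the 7 libraries. Segment C was the highest for 14 members (32.6%), F for 10 (23.3%), E for 9 (20.9%), B for 4 (9.30%), D for 4 (9.30%) and A for 2 (4.65%). Among classifiable genes as a whole, 10.6% were highest in C, 31.9% in F, 18.9% in E, 7.98% in B, 9.72% in D and 20.9% in A. Of the 40 classifiable members, C was the highest for 12 (30.0%), and F and E for 9 each (22.5%). Segment A was the lowest for 30 of 43 members, for 28 of the 40 classifiable ones, and for 56.0% of classifiable genes. The highest segment exceeded the lowest by a median of 2.45-fold, by 5-fold or more in 7 members, and by less than 2-fold in 13. These numbers were not obtained for all genes, so they do not tell whether the members are more graded than other genes. The plot of shares by segment shows that the members with a pronounced profile did not share one.

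**Figure D1:**
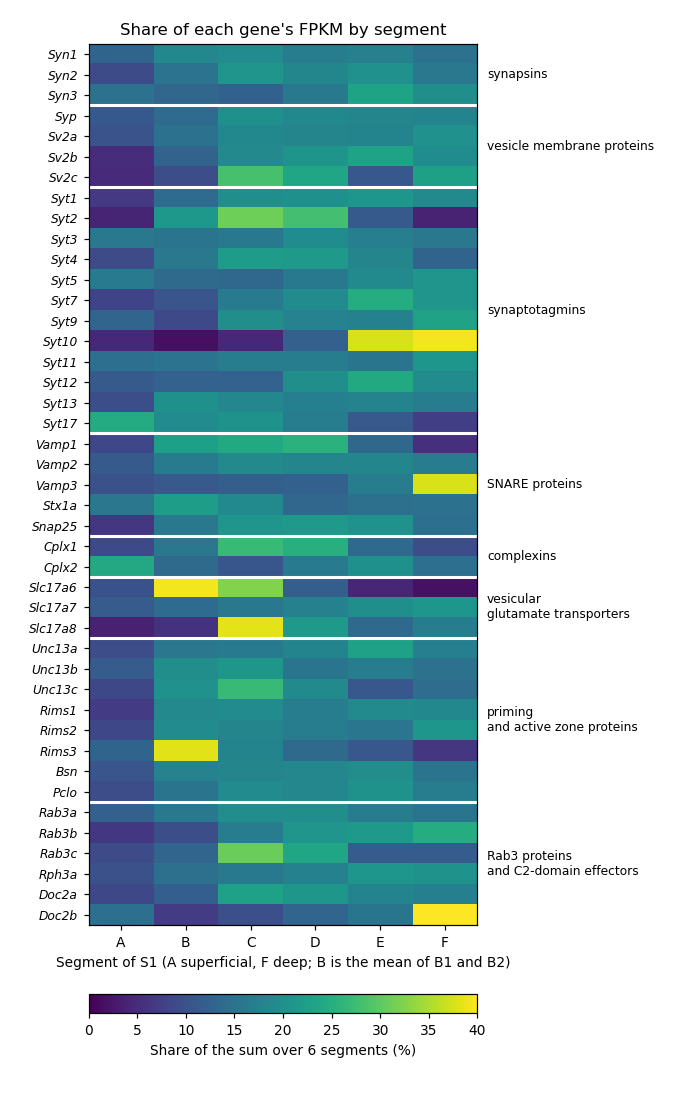
Share of the FPKM of each of the 43 genes (rows, grouped by role) in the 6 segments of S1 (columns), in percent of the sum over segments. The highest share is 30% or more in 8 rows: Slc17a6 and Rims3 in B, Syt2, Slc17a8 and Rab3c in C, and Syt10, Vamp3 and Doc2b in F. Shares of 30% or more were not counted over all genes.

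A smooth trend with depth was tested for each classifiable gene by the moderated F-test of limma, with a linear and a quadratic term of segment position, and p-values were adjusted over all 11409 genes by the Benjamini-Hochberg method. The linear term is given as the change in log2(FPKM + 0.1) per segment from A to F. At an adjusted p of 0.05, 21 of 40 members (52.5%) were called, 16 with a positive and 5 with a negative linear term. Among all genes 43.5% were called, 35.5% rising with depth and 8.06% falling, so the share of members called stood near the background. A called trend with a negative quadratic term was found for 18 members and for 32.8% of all genes. Such a term marks a course that bends downwards, whether or not its highest point is in the middle. The numbers with a positive and a negative linear term depended on the scale of the libraries. They were 8 and 7 when libraries were scaled by the median of ratios, 8 and 5 after rescaling to pan-neuron markers, 12 and 5 after rescaling to the FPKM outside the mitochondrial genome, 14 and 6 after adjustment for GC content, and 8 and 7 after adjustment for transcript length. The shares of all genes rising and falling moved as well, to 17.3% and 15.6% with the median of ratios, 14.55% and 13.01% with pan-neuron markers, 25.0% and 9.67% without the mitochondrial genome, 15.8% and 15.4% with GC adjustment, and 19.3% and 17.4% with length adjustment. Rescaling by the median of ratios moved the median linear term of all genes from 0.09 to 0.00 and that of the members from 0.13 to 0.03.

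Of the 21 calls, 7 held in all 17 alternative settings of the test, those of Sv2b, Syt2, Syt7, Syt10, Vamp1, Slc17a6 and Rab3b. These 17 leave out the test of the linear term alone. It called 9 of the 40 members, 8 with a positive and 1 with a negative linear term. Among all genes it called 18.7%, 16.1% rising and 2.63% falling. Library A carried the most weight. Without it 11 of the 21 calls were lost (Syn2, Syp, Sv2a, Syt1, Syt4, Snap25, Cplx1, Slc17a7, Pclo, Rph3a and Doc2a), with adjusted p between 0.0674 and 0.245, and 11 of the 40 members were called in all, while the share of all genes called became 10.1%. Without F, 7 calls were lost (Syp, Syt17, Vamp3, Slc17a7, Rph3a, Doc2a and Doc2b), with adjusted p between 0.0544 and 0.19. Leaving out E lost 7, C lost 6, D lost 4, B2 lost 3 and B1 lost 0, with adjusted p of the lost calls from 0.0505 to 0.124. Among all genes, 32.4% were called without F, 29.2% without E and 28.9% without C. The share was 30.7% without D, 36.9% without B2 and 57.9% without B1.

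**Figure D2:**
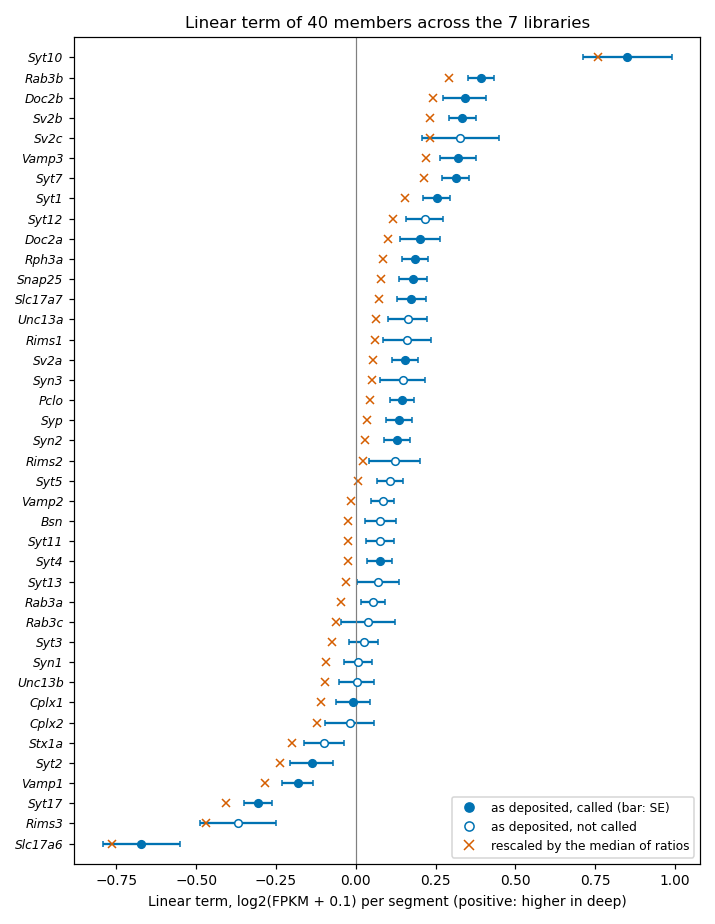
Linear term of the 40 classifiable members (change in log2(FPKM + 0.1) per segment; circles with SE, filled where the F-test was called) and the same after rescaling by the median of ratios (crosses). Syt10 has the highest term (0.85) and Slc17a6 the lowest (-0.67), and rescaling shifts every member downwards.

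Between the outermost segments, the median log2 ratio of F to A was 0.77 over the 43 members and 0.51 over the 14455 genes whose mean reached 0.5 FPKM. It was positive for 35 members. With libraries scaled by the median of ratios it was 0.18 against -0.074, with 24 members positive. The difference between members and all genes, 0.26, is the same on any scale of the libraries but was 0.023 after adjustment for transcript length. At least 2-fold apart with separate 95% intervals were 13 of 40 members higher in F (32.9% of all classifiable genes) and 3 higher in A (10.1%). The members higher in F were Sv2b, Sv2c, Syt1, Syt7, Syt10, Vamp3, Snap25, Rims1, Rims2, Rab3b, Rph3a, Doc2a and Doc2b, and those higher in A were Syt17, Slc17a6 and Rims3. Each segment here is 1 library, so these counts have no replicate check. Under the same rule 0 members differed between the replicates B1 and B2, where 3.58% of all genes were higher in B1 and 5.04% in B2. The deposited intervals nevertheless did not overlap between B1 and B2 in 34 of 43 members, 26 of them higher in B1. Such intervals were not counted over all genes, so these numbers do not set the members apart from other genes. The median absolute log2 ratio of B2 to B1 was 0.26. B1 and B2 are pools of different litters and separate libraries, so this difference is not the spread between mice alone.

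The vesicular glutamate transporters load glutamate into vesicles, and their 3 paralogs were highest in different segments. Slc17a7, which encodes VGLUT1, the main form of cortical excitatory neurons, was present at 435, 629, 439, 610, 670, 762 and 799 FPKM. It was lowest in A, highest in F, and B1 and B2 differed by more than D and F did. Its linear term was 0.17 ± 0.046 (SE; adjusted p = 0.0452), a call that was kept in 5 of 17 alternatives. Slc17a6, which encodes VGLUT2, the form typical of thalamic neurons (chr7:58877437-58926489 in mm9), was measured at 1.99, 7.73, 7.86, 6.43, 2.39, 0.845 and 0.366 FPKM. B1, B2 and C were the high libraries, E and F the low ones, and the highest segment exceeded the lowest 21.3-fold. Its linear term was -0.67 ± 0.12 and its quadratic term was negative (adjusted p = 0.00693), and it was called in all 17 alternatives.

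Slc17a7 thus exceeded Slc17a6 in every library, by 218-fold, 81.4-fold, 55.9-fold, 94.8-fold, 280-fold, 901-fold and 2183-fold. The log2 ratio of the pair followed segment position (R squared = 0.903; exact permutation test over all orders of the 7 libraries, p = 0.0111, adjusted p = 0.0299 over 35 pairs of paralogs). The third paralog, Slc17a8, encodes VGLUT3, which is known from some neurons that use another main transmitter. It was measured at 0.202, 0.362, 0.303, 2.16, 1.21, 0.772 and 0.954 FPKM, with 38.3% of its share in C. Its intervals were too wide for the trend test. The ratio of Slc17a6 to Slc17a8 fell from 21.3 in B1 and 25.9 in B2 to 0.384 in F (exact permutation p = 0.0214, adjusted p = 0.0469). The wide intervals of Slc17a8 bear on this ratio as well. Its FPKM in A, B1 and B2 was not far above the 0.1 added before taking logs. In all 7 libraries Slc17a7 made up between 98.2% and 99.8% of the FPKM of the family.

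Of the 35 pairs of paralogs, 16 had a log2 ratio that followed segment position at an adjusted p of 0.05. Pairs of unrelated genes were not tested, and 43.5% of all genes had a called trend of their own. The number of pairs called thus does not set paralogs apart from other pairs of genes. A ratio within a library does not depend on the scale of that library. With 7 libraries, 2 of which share a position, the smallest p that this exact test can give is 0.000397. The count was 13 after adjustment for GC content and 13 after adjustment for transcript length. It depended on the libraries used, and differed between settings with the same number of values. With B1 and B2 averaged it was 8. With 1 library left out it lay between 0 (without B2, without C or without F) and 11 (without B1). The smallest p was then 0.00278, and at an unadjusted p of 0.05 there were still 16 pairs without B2, 16 without C and 13 without F. Over 15 alternative settings, the pairs Slc17a6 with Slc17a8 and Rab3b with Rab3c were called in 4, Slc17a6 with Slc17a7, Vamp1 with Vamp2, Vamp1 with Vamp3, Syt1 with Syt11 and Syn1 with Syn2 in 6, and the other 9 pairs in 7 to 12. The plot of paralog levels by library shows 6 of the families.

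**Figure D3:**
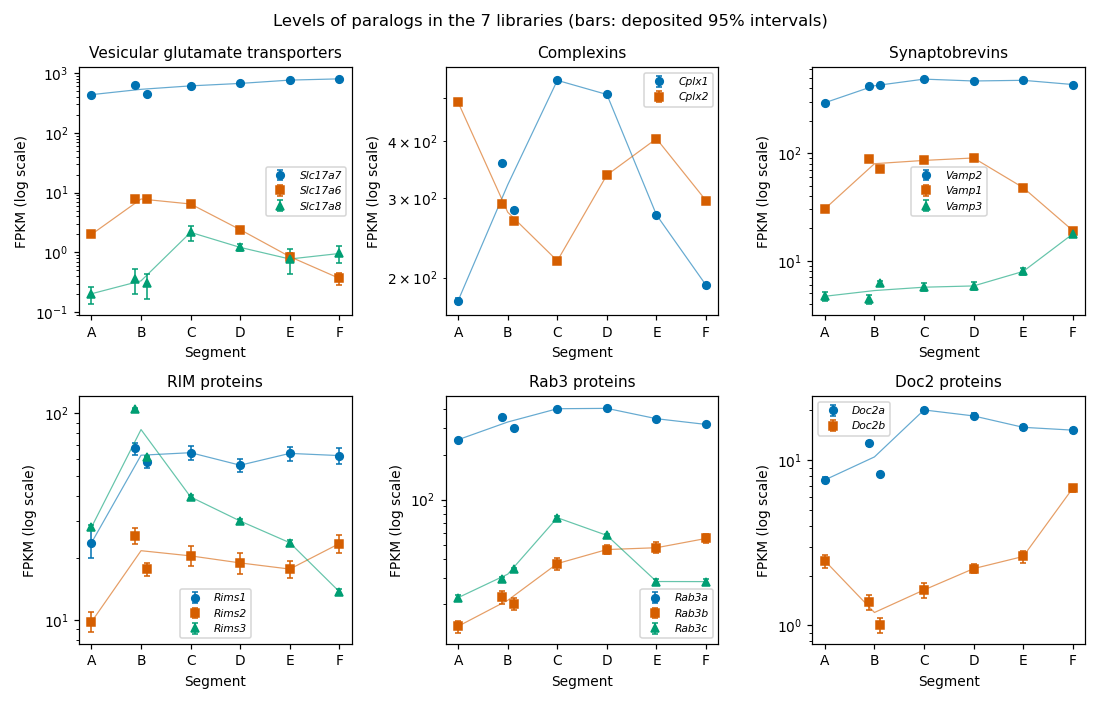
FPKM (log scale) of the paralogs of 6 families in the 7 libraries (points, with B1 to the left and B2 to the right in segment B; bars, deposited 95% intervals; lines join the segment means). The ratio to the main paralog followed segment position by the exact permutation test for Slc17a6, Vamp1, Vamp3, Rims3, Rab3b and Doc2b. Vamp1 and Vamp3 come to 19.1 and 17.8 FPKM in F.

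The synaptobrevins are the SNARE proteins of the vesicle. Vamp2, the main form, was even apart from A at 294, 416, 429, 486, 467, 474 and 433 FPKM, and did not pass the trend test (adjusted p = 0.0549). Vamp1, known from fast-spiking neurons and from the spinal cord and brain stem (chr6:125165569-125172324 in mm9), was measured at 30.4, 88.4, 71.1, 85.6, 90.1, 47.8 and 19.1 FPKM. All 4 libraries of B, C and D lay above the libraries of A, E and F. The quadratic term was negative and the trend was called in all 17 alternatives (adjusted p = 0.0035), whereas the negative sign of its linear term (-0.18 ± 0.048) turned without F. Vamp3, or cellubrevin, which serves membrane traffic in many cell types, was present at 4.69, 4.40, 6.19, 5.69, 5.85, 7.97 and 17.8 FPKM. F alone stood well above the rest. Vamp3 rose with depth (linear term 0.32 ± 0.057, adjusted p = 0.00898), though not without F (adjusted p = 0.19).

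Each pair of synaptobrevins changed its ratio with position. Vamp2 exceeded Vamp1 by 4.70-fold in B1, 6.03-fold in B2 and 22.7-fold in F (exact permutation p = 0.0103, adjusted p = 0.0299). The ratio of Vamp2 to Vamp3 was 94.6 in B1, 69.2 in B2 and 24.4 in F (exact permutation p = 0.00754, adjusted p = 0.029). That of Vamp1 to Vamp3 was 20.1 in B1, 11.5 in B2 and 1.08 in F (exact permutation p = 0.00873, adjusted p = 0.029).

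The other SNARE proteins sit on the plasma membrane. Snap25, which encodes SNAP-25 (chr2:136539189-136608164 in mm9), had the highest mean of the 43 members, at 490, 1175, 1273, 1592, 1658, 1574 and 1115 FPKM. A was the lowest library by a wide margin and C, D and E the highest. The trend was called (linear term 0.18 ± 0.045, negative quadratic term, adjusted p = 0.00592) but not without A (adjusted p = 0.0788). Stx1a, which encodes syntaxin 1A, was highest in B1 and B2 among its 133, 206, 167, 159, 111, 124 and 124 FPKM, and did not pass the test (adjusted p = 0.389).

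For Snap25 2 transcripts were classifiable, and they share 5 of 8 exons in the GENCODE M21 models of the same identifiers. Exon 5 of each is a 118-nt alternative to that of the other, and both lie side by side on the forward strand of chromosome 2. SNAP-25 is known to exist in an a and a b form that come from such a choice of exon. The exon of each transcript is shown because it is the part by which the protein differs, with the 31 bases at which they differ (of 118) in capitals. The first is at chr2:136770057-136770174 and the second at chr2:136769743-136769860 in GRCm38, whereas all gene positions in the deposited tables are those of mm9.
ENSMUST00000028727: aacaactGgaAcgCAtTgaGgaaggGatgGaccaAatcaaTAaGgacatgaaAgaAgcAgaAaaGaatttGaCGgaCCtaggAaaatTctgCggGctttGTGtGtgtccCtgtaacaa
ENSMUST00000110098: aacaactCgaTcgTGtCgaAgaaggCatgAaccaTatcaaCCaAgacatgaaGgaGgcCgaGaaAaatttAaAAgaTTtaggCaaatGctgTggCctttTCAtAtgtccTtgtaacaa

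ENSMUST00000028727 was measured at 395, 826, 1090, 1282, 1344, 1270 and 738 FPKM, which followed the total of the gene. ENSMUST00000110098 was measured at 94.5, 349, 183, 310, 314, 304 and 376 FPKM, with its highest value in F. As a percentage of the FPKM of the gene, the second transcript made up 19.3%, 29.7%, 14.4%, 19.5%, 18.9%, 19.3% and 33.8%, so that F and B1 were high and B2 low. From C, D or E to F, the first transcript was lower and the second higher, each with intervals that did not overlap. The same held from B2 to B1, so a shift of this size also occurred between replicates. The models differ in their last end as well, by 1077 nt, and the deposited FPKM of a transcript rest on the whole model and not on exon 5 alone.

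**Figure D4:**
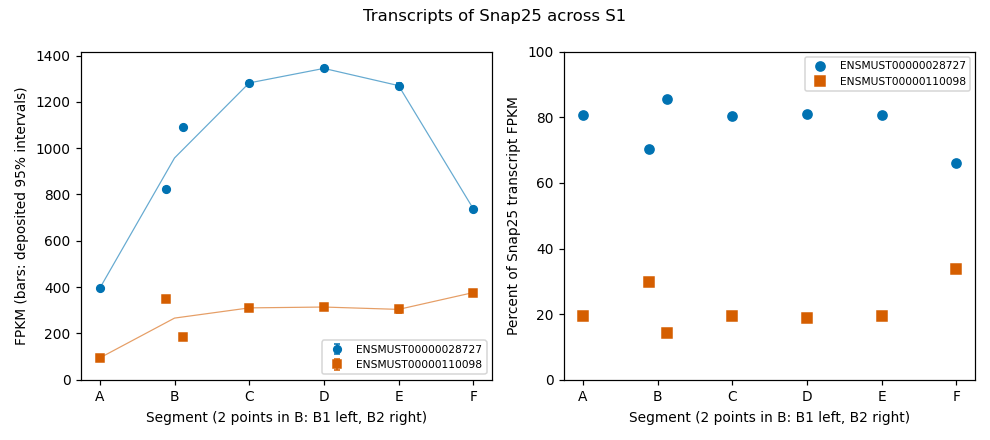
FPKM (left; bars, deposited 95% intervals; lines join segment means) and percentage of the FPKM of Snap25 (right) for its 2 transcripts in the 7 libraries, with B1 to the left and B2 to the right. ENSMUST00000110098 holds 33.8% in F and 29.7% in B1, against 14.4% to 19.5% in the other libraries.

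Synaptotagmins sense calcium on the vesicle or act in other membrane traffic. Syt1, the main fast sensor of cortical neurons, was measured at 153, 309, 336, 454, 464, 486 and 439 FPKM. It rose with depth (linear term 0.25 ± 0.042, adjusted p = 0.00553), though not without A (adjusted p = 0.0775). Syt2, the other fast sensor, known from fast-spiking interneurons and the brain stem (chr1:136605877-136649726 in mm9), was measured at 3.54, 21.2, 15.0, 26.4, 23.7, 9.53 and 3.28 FPKM. It was high in B, C and D and low at both ends, with 31.2% of its share in C and 3.87% in F, and its trend was called in all 17 alternatives (adjusted p = 0.00341). Syt1 exceeded Syt2 by 14.6-fold in B1, 22.4-fold in B2 and 134-fold in F (exact permutation p = 0.00913, adjusted p = 0.029).

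Syt7, a slow sensor of high affinity, was measured at 23.8, 32.5, 29.8, 49.5, 56.96, 73.1 and 61.6 FPKM. It rose with depth (linear term 0.31 ± 0.042, adjusted p = 0.0051) in all 17 alternatives, and D, E and F lay above A, B1 and B2 without overlap. Syt10, a sensor known from the release of a growth factor in the olfactory bulb, was low but steeply graded, at 0.607, 0.208, 0.239, 0.593, 1.60, 4.93 and 5.16 FPKM. E and F stood apart from the other libraries, with shares of 37.6% and 39.4%, and the highest segment exceeded the lowest 23.0-fold. Its linear term, 0.85 ± 0.14, was the highest of the 40 members (adjusted p = 0.00884) and was called in all 17 alternatives.

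Syt17 ran the opposite way, at 10.3, 7.67, 8.55, 8.63, 7.11, 4.70 and 3.09 FPKM. Together with Syt2 it was a synaptotagmin with a called negative linear term (linear term -0.31 ± 0.044, adjusted p = 0.00592), though not without F (adjusted p = 0.0654). The ratio of Syt1 to Syt17 rose from 14.8 in A to 142 in F (exact permutation p = 0.00159, adjusted p = 0.0139), and this pair was called in 12 of 15 alternatives. Syt4, a form that binds little calcium, was highest in C and D among its 22.9, 35.9, 43.3, 54.9, 53.3, 45.0 and 31.8 FPKM. It was called (adjusted p = 0.00846), with a linear term of 0.074 ± 0.038 whose sign was not stable. Syt1 exceeded Syt4 by 6.68-fold in A and 13.8-fold in F (exact permutation p = 0.00873, adjusted p = 0.029).

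Syt11, a form without calcium binding, was abundant at 239, 223, 273, 275, 273, 252 and 341 FPKM. F was its high library, and it did not pass the trend test (adjusted p = 0.328). Syt11 was higher than Syt1 in A, where the ratio of Syt1 to Syt11 was 0.64, and lower in the other libraries, where it was 1.23 to 1.93 (exact permutation p = 0.00675, adjusted p = 0.029). The remaining synaptotagmins did not pass the trend test. Syt3 was measured at 23.0, 25.3, 19.1, 23.2, 27.8, 24.5 and 22.8 FPKM. Syt5 was highest in F among its 84.0, 77.1, 64.7, 70.0, 83.5, 98.9 and 108 FPKM. Syt13 was highest in B1 among its 49.6, 118, 87.7, 94.7, 88.6, 91.6 and 85.9 FPKM. Syt12 ran from 11.3 FPKM in B2 to 25.7 in E (adjusted p = 0.0512), and Syt9, which was not classifiable, from 0.989 in B2 to 2.66 in F.

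Complexins clamp and trigger the assembled SNARE complex, and Cplx1 was highest and Cplx2 lowest in segment C. Cplx1 (chr5:108947573-108979043 in mm9) was measured at 178, 359, 282, 546, 508, 275 and 193 FPKM, with C and D as the high libraries and A and F as the low ones. Its trend was called through a negative quadratic term (adjusted p = 0.00918), but not without A (adjusted p = 0.0674). Cplx2 was measured at 488, 291, 267, 218, 337, 406 and 296 FPKM, highest in A and lowest in C, and did not pass the test (adjusted p = 0.474). Cplx1 made up 26.7% of the FPKM of both in A, 71.5% in C and 39.4% in F. The ratio of Cplx1 to Cplx2 was 0.365, 1.23, 1.06, 2.50, 1.51, 0.679 and 0.65 in the 7 libraries. Over this range of 2.78 on the log2 scale, a smooth course did not pass the exact permutation test (p = 0.0556, adjusted p = 0.102).

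Syt2, Vamp1 and Cplx1 were each higher in C and D than in A, E or F, as were the summed markers of parvalbumin interneurons. This was not particular to them, and how many of all genes showed it was not counted. Among other members Rab3c, Syt4, Snap25, Rab3a, Syp, Sv2c, Doc2a, Rims3, Slc17a6, Slc17a8 and Unc13c showed it as well. So did the summed pan-neuron markers, at 1938 in A, 3028 in C, 2998 in D, 2743 in E and 2524 FPKM in F. Pvalb, which encodes the calcium-binding protein parvalbumin, was measured at 61.1, 70.2, 118, 145, 117, 56.4 and 16.5 FPKM. All 4 markers of that list (Pvalb, Kcnc1, Kcnc2 and Kcns3) were higher in B, C and D taken as segment means than in F, and their summed FPKM was 86.6, 150, 166, 207, 188, 113 and 45.8. Pvalb, Kcnc2 and Kcns3 were called by the trend test, each with a negative quadratic term, Pvalb not without F. Between the replicates the log2 ratio of B2 to B1 was 0.75 for Pvalb against -0.50 for Syt2, -0.31 for Vamp1 and -0.35 for Cplx1. Gad1, a marker of interneurons in general, was also highest in these segments, with 24.2% of its share in C and 24.0% in D. The part of parvalbumin or other interneurons in the profiles of the 3 members was not tested. The plot of shares beside markers shows both.

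**Figure D5:**
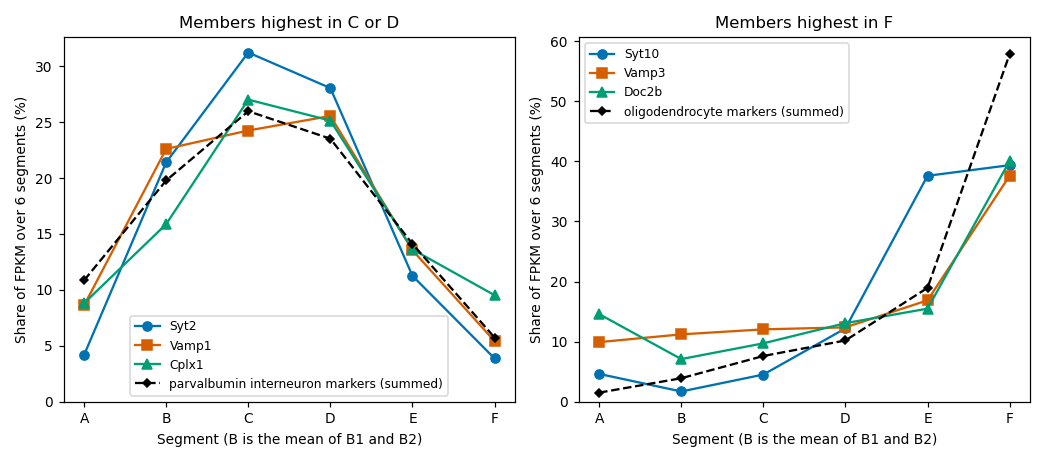
Share of FPKM by segment (percent; B is the mean of B1 and B2) of Syt2, Vamp1 and Cplx1 with the summed parvalbumin interneuron markers (left), and of Syt10, Vamp3 and Doc2b with the summed oligodendrocyte markers (right). The members on the left have 24.3% to 31.2% of their share in C and 3.87% to 9.53% in F, and those on the right have 37.6% to 40.0% in F.

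Doc2 proteins are soluble calcium sensors with a pair of C2 domains. Doc2b was measured at 2.46, 1.39, 1.01, 1.64, 2.21, 2.61 and 6.76 FPKM, with F far above the other libraries at a share of 40.0%. It rose with depth (linear term 0.34 ± 0.068, adjusted p = 0.00845), though not without F (adjusted p = 0.166). Doc2a was highest in C among its 7.59, 12.6, 8.27, 20.1, 18.5, 15.8 and 15.2 FPKM, and A and B2 were its low libraries. Its trend was called (adjusted p = 0.0344) in the main test and in 8 of 17 alternatives. The ratio of Doc2a to Doc2b was 3.09 in A, 12.3 in C and 2.25 in F (exact permutation p = 0.00119, adjusted p = 0.0139).

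Oligodendrocyte markers were steeply graded towards F, where Syt10, Vamp3 and Doc2b were also highest. The 10 markers summed to 331, 850, 860, 1663, 2228, 4141 and 12637 FPKM. All 10 rose with depth, from the lowest ratio of F to A in Opalin (4.09 to 76.3 FPKM) to the highest in Mobp (26.3 to 1379 FPKM). To be highest in F was not particular to Syt10, Vamp3 and Doc2b. It held for 9 of the 40 classifiable members and for 31.9% of classifiable genes. The summed astrocyte and microglia markers were also highest in F, with 23.0% and 22.2% of their share. The part of oligodendrocytes or other glia in the values of Syt10, Vamp3 and Doc2b in F was not tested. Syt10 had 37.6% of its share in E and 39.4% in F, whereas the summed oligodendrocyte markers had 18.9% and 57.8%.

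RIM proteins organise the active zone and tether vesicles near calcium channels. Rims3, which encodes a short form of RIM (chr4:120527424-120569184 in mm9), was measured at 28.1, 106, 61.5, 39.4, 30.1, 23.7 and 13.7 FPKM. Both libraries of B lay above all others, although B1 was well above B2, and 38.2% of the share was in B. The trend did not pass the test (adjusted p = 0.0527) and was called in 4 of 17 alternatives. Rims1 was even apart from A at 23.6, 67.6, 57.9, 64.5, 56.1, 64.0 and 62.5 FPKM (adjusted p = 0.0866), and Rims2 ran at 9.78, 25.6, 17.7, 20.4, 18.9, 17.6 and 23.4 FPKM (adjusted p = 0.29). The ratio of Rims1 to Rims3 was 0.841, 0.64 and 0.941 in A, B1 and B2 and rose to 4.56 in F (exact permutation p = 0.00556, adjusted p = 0.029). The ratio of Rims2 to Rims3 was 0.242 in B1, 0.287 in B2 and 1.71 in F (exact permutation p = 0.0123, adjusted p = 0.0308). Rims3 thus made up 53.1% of the FPKM of the family in B1 and 44.9% in B2, against 13.8% in F.

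The other priming and active zone genes were more alike. Unc13a, which encodes Munc13-1, the main priming protein of excitatory synapses, was measured at 23.4, 49.2, 30.2, 41.2, 44.8, 57.1 and 42.9 FPKM (adjusted p = 0.0764). Its log2 ratio of B2 to B1 was -0.71. Unc13b ran from 3.92 FPKM in A to 7.22 in C (adjusted p = 0.232), and Unc13c, which was not classifiable, from 1.16 in A to 3.63 in C. The giant scaffold proteins were present at 37.7, 73.1, 53.0, 64.6, 65.9, 70.6 and 54.7 FPKM for Bsn (bassoon; adjusted p = 0.0899) and at 13.4, 21.5, 22.4, 27.7, 26.5, 29.2 and 24.2 FPKM for Pclo (piccolo). Pclo was called (linear term 0.14 ± 0.038, adjusted p = 0.0147), but not in 6 of 17 alternatives (median of ratios, pan-neuron markers, GC content, transcript length, and without A or E). No pair of the Munc13 family or of Bsn and Pclo had a ratio that passed the exact permutation test (adjusted p from 0.286 to 0.545).

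Rab3 proteins are small GTPases of the vesicle. Rab3a, the main form, was measured at 251, 359, 301, 405, 407, 347 and 318 FPKM (adjusted p = 0.0713). Rab3b was graded, at 14.3, 22.3, 20.2, 37.4, 46.4, 47.7 and 55.02 FPKM, and rose with depth (linear term 0.39 ± 0.041, adjusted p = 0.00344) in all 17 alternatives. Each segment from A to F was higher than the one above it, although D and E differed by less than B1 and B2 did. The ratio of Rab3a to Rab3b fell over the libraries from 17.6 and 16.1 through 14.9, 10.8, 8.78 and 7.28 to 5.78. This pair had the smallest p the exact permutation test can give (0.000397, adjusted p = 0.0139) and was called in 12 of 15 alternatives. Rab3c was highest in segments C and D, at 22.1, 29.3, 34.2, 75.7, 57.7, 28.4 and 28.3 FPKM, and 31.0% of its share was in C. It did not pass the trend test (adjusted p = 0.0684), and the ratio of Rab3b to Rab3c moved from 0.494 in C to 1.94 in F (exact permutation p = 0.0214, adjusted p = 0.0469). Rph3a, which encodes rabphilin, a Rab3 effector, was highest in E and F among its 85.2, 136, 118, 138, 150, 180 and 176 FPKM (linear term 0.18 ± 0.04, adjusted p = 0.0198), a call kept in 9 of 17 alternatives.

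Among the vesicle membrane proteins, the SV2 glycoproteins differed from each other. Sv2b was measured at 30.4, 78.5, 72.8, 112, 123, 138 and 116 FPKM, and rose with depth (linear term 0.33 ± 0.043, adjusted p = 0.00388) in all 17 alternatives. Sv2a, the main form and the target of the antiepileptic drug levetiracetam, was present at 86.8, 133, 119, 158, 154, 152 and 171 FPKM. It rose less steeply (linear term 0.15 ± 0.04, adjusted p = 0.0302), and was called in 7 of 17 alternatives. The ratio of Sv2a to Sv2b was 2.85 in A, 1.10 in E and 1.48 in F (exact permutation p = 0.000794, adjusted p = 0.0139). Sv2c was low, at 1.05, 2.54, 1.71, 6.35, 5.30, 2.46 and 5.09 FPKM, with C, D and F above the rest (adjusted p = 0.0675). Syp, which encodes synaptophysin, was measured at 526, 710, 615, 953, 884, 867 and 861 FPKM, so that C to F lay above A and B (linear term 0.13 ± 0.041, adjusted p = 0.0381), a call kept in 6 of 17 alternatives.

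Synapsins tether vesicles to each other and to the cytoskeleton. Syn1 was the most abundant, at 171, 266, 227, 255, 223, 232 and 200 FPKM, and did not pass the test (adjusted p = 0.233). Syn2, at 28.1, 48.5, 43.1, 62.4, 54.9, 60.7 and 47.8 FPKM, was called (linear term 0.13 ± 0.041, adjusted p = 0.0175), with A as its low library, a call kept in 10 of 17 alternatives. The ratio of Syn1 to Syn2 was 6.10 in A, between 5.26 and 5.49 in B, and between 3.82 and 4.18 in C to F (exact permutation p = 0.00317, adjusted p = 0.0222). Syn3 was measured at 3.05, 3.44, 1.92, 2.52, 3.28, 4.69 and 4.03 FPKM, and B1 and B2 differed by more than A and F did (adjusted p = 0.222).

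Isoforms were compared by the first of the conditions the study set, that between a pair of libraries a transcript is higher in the first and another transcript of the gene higher in the second, both with 95% intervals that do not overlap. Its further condition, on the distance between isoforms in layer enrichment, was not applied. At least 2 classifiable transcripts were present in 10 members and 1988 genes. Over the 21 pairs of libraries 9 of the 10 members met it, as did 81.8% of all genes. Between the replicates B1 and B2 alone it was met by 5 of 10 members (Syt7, Syt11, Snap25, Rims1 and Bsn) and by 38.4% of all genes, and between A and F by 1 member, Syt11, and 31.2% of all genes. With intervals widened 2 times, 5 members and 60.2% of all genes met it in any pair.

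Syt11 was the member that met the criterion in most pairs, 12 of 21. Its transcript ENSMUST00000090945 made up 23.0%, 59.3%, 37.4%, 54.2%, 56.1%, 62.9% and 61.5% of the FPKM of the gene, and ENSMUST00000107503 made up the remainder. A and B2 were thus the libraries in which the second transcript was the higher one. Bsn changed in 7 pairs, with ENSMUST00000035208 at 28.4% in A, 57.7% in B1, 26.9% in B2 and 39.9% to 47.7% in C to F, and ENSMUST00000124763 as the remainder. For Bsn the replicates were the outermost libraries.

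Syp had a transcript, ENSMUST00000150572, that was listed at 0 in A, B1 and B2 and at 208, 224, 276 and 223 FPKM in C, D, E and F, while ENSMUST00000033484 was measured at 526, 710, 615, 745, 660, 591 and 637 FPKM. A transcript listed at 0 need not be absent. ENSMUST00000033484 alone was thus not higher in D, E and F than in B1. Syn1, Unc13a, Rims1 and Rims2 met the criterion in 2, 2, 6 and 6 pairs. The leading transcript of Syn1, ENSMUST00000081893, made up 79.2% of the gene in A, 61.4% in B1, 75.7% in B2 and 68.3% to 69.7% in C to F, and ENSMUST00000115345 made up the remainder. For Unc13a, ENSMUST00000030170 held 86.5% to 92.6% and ENSMUST00000066644 7.39% to 13.5%. In Rims1, ENSMUST00000081544 held 33.3% in B1 and 53.1% in B2, and ENSMUST00000097808 17.3% and 7.96%. In Rims2, ENSMUST00000090116 held 69.1% in A, 14.2% in B1 and 52.7% in B2, and ENSMUST00000110312 17.8%, 22.4% and 32.5%. Syt7 met the criterion only between B1 and B2, with ENSMUST00000025652 at 55.7% and 40.9% and ENSMUST00000076968 at 22.9% and 42.6%.

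Of 62 other genes of the release pathway, 61 were listed and 53 were classifiable, and 37 of these (69.8%, against 43.5% of all genes) were called by the trend test, 33 with a positive and 4 with a negative linear term. With libraries scaled by the median of ratios 26 were called (33.0% of all genes), 18 with a positive and 8 with a negative term, and without A, 8 were called (10.1% of all genes). The lowest linear terms among those called were those of Slc30a3, which encodes the zinc transporter of glutamatergic vesicles (-0.42 ± 0.052, 58.5 FPKM in A and 15.2 in F, adjusted p = 0.00455), Ppfia3 (-0.14 ± 0.041) and Ppfia2 (-0.082 ± 0.036), which encode liprins of the active zone. The calls of both liprins were lost without A, without C, without D, without E and without F. The highest were those of Cplx3, a complexin known from the retina and from deep cortical layers (0.89 ± 0.086, 9.24 FPKM in A, 2.29 in C and 164 in F, adjusted p = 0.00209), Sh3gl3, an endophilin of endocytosis (0.46 ± 0.056, 9.02 FPKM in A and 45.2 in F), and Sypl, a relative of synaptophysin found in many tissues (0.43 ± 0.06, 3.95 FPKM in A and 21.1 in F). In F, Cplx3 at 164 FPKM was thus close to Cplx1 at 193 FPKM, whereas in C it stood at 2.29 against 546 FPKM.

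Neuronal markers were present in every library. The summed FPKM of 10 pan-neuron markers ran from 1938 in A to 3028 in C, with the ratio of F to A lowest for Rbfox3 (337 to 107 FPKM) and highest for Ndrg4 (168 to 427 FPKM). The 6 excitatory neuron markers summed to 5660 in A and 1605 in F, with the lowest ratio in Nrgn (4621 to 1028 FPKM), whereas Tbr1 had the highest (10.5 to 66.6 FPKM). The 6 interneuron markers summed to 62.4 in A, 195 in C and 117 in F, with Dlx1 lowest (7.08 to 8.08 FPKM) and Gad2 highest (7.15 to 15.9 FPKM). Astrocyte markers summed to 300.0 to 641 FPKM (Aldh1l1 lowest, Aqp4 highest in the ratio of F to A), microglia markers to 41.9 to 84.5 (Aif1, P2ry12) and endothelium markers to 37.3 to 69.2 (Cldn5, Tek). Their part in the profiles of the members was not tested.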

How the data were processed

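Per the submitters' processing notes, reads were mapped to mm9 with TopHat 1.0.13 and quantified with Cufflinks 0.8.3. The authors deposited the FPKM of Ensembl genes and transcripts with 95% intervals, and the coverage signal of transcripts, from which the depth was estimated with 50 nt read at both ends. Genes without a line in a library were set to 0. Symbols (22021 of 24130 genes) and transcripts were matched by identifier to GENCODE M21, and 6465 of 46931 transcripts were assigned by position. The members and all gene lists were chosen with earlier results of these data known. The trend test used limma 3.58.1 (R 4.3.3) on log2(FPKM + 0.1), which understates changes of low genes, and the other tests were 2-sided exact permutations in Python 3.11.15. Both were tested on simulated data. The p-values of the trend test weigh the trend against the departures of these 7 libraries from it, where only B has replicates. Those of the permutation test rank how well a ratio follows segment position among all orders of the libraries. Neither measures the variation between mice, because the segments share their mice. The other 12 samples of the series were not analysed here. The de novo models were not used here. Named are all members, the isoforms of members that met the criterion, the other pathway genes with the 3 lowest and 3 highest linear terms among those called, and the markers with the lowest and highest ratio of F to A. Of the other settings tried, 93 varied scale, GC content, pseudocount, filters, folds, intervals and libraries, and 7 on transcript length were chosen after seeing the data.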

Additional observations from a re-analysis of the deposited data

How the results depend on the processing

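Results are given in the order members with a trend (21), other pathway genes with a trend (37), members higher in A than F (3) or in F than A (13), median log2 ratio of F to A (0.77), paralog pairs (16) and members with opposed isoforms (9). Rescaling by the median of ratios gave 5 members higher in A and 5 in F (19.7% and 15.8% of all genes). The median was then 0.18. Rescaling to pan-neuron markers gave 13 members and 20 other genes with a trend (27.6% of all genes). It gave 5 members higher in A (15.3% of all genes), and a median of 0.41. Adjustment for GC content gave 5 and 8 members higher in A and F (13.2% and 14.7% of all genes) and a median of 0.32. Adjustment for transcript length, chosen after seeing the data, gave 5 and 5 (14.4% and 17.0%) and a median of 0.067. A 1.5-fold limit gave 5 and 21 members (16.3% and 48.3% of all genes), and a 3-fold limit 5 higher in F (15.8%). With the linear term alone, 9 members and 12 other genes were called (18.7% of all genes), and 6 pairs. Averaging B1 and B2 left 8 pairs. Intervals widened 2 times left 5 members with opposed isoforms (60.2% of all genes), and all transcripts gave 18 of 21 (73.2%). With each library left out in turn, the members with a trend numbered 11 to 29, the other genes 8 to 41 and the pairs 0 to 11. The share of all genes with a trend then ran from 10.1% (without A) to 57.9% (without B1). Members with opposed isoforms (B1 or B2 left out) numbered 7 to 8, with 72.6% to 74.2% of all genes. The other values of these counts stayed within 1.5 times, or for the median within the replicate spread of 0.18 (log2). The sign of a linear term turned for Syt4 after the median of ratios (-0.026), GC (-0.12) and length adjustment (-0.062), and for Pclo after GC adjustment (-0.0056). With each library left out in turn, the term ran from -0.53 to 0.26 for Syt2, -0.43 to 0.11 for Vamp1, -0.17 to 0.18 for Cplx1 and -0.048 to 0.22 for Syt4. The causes were not tested. No paired analysis was possible because only segment B has replicates.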
